A study of Mus musculus with 2 samples.

Results

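Apoe, Clu and Apod are 3 apolipoprotein genes made by cells of the brain, and they were followed in hippocampus of the mouse by long-read RNA sequencing, in which a read spans many exons at once and is assigned to a transcript model. The members were taken by gene name from the deposited table of each library, and all 3 were found in both libraries. Genes with a read in at least 1 library numbered 18595. The tissue came from adult mice of strain B6NCrl (C57BL/6 background), 6 months old and described as male, with no treatment or altered allele labelled. The labels give 1 group of 2 libraries, replicate 1 and replicate 2, with separate biosamples and the same donor identifier, and whether they came from separate animals is not stated. Every p-value below therefore compares the 2 libraries, not conditions, and those of Fisher's exact test measure counting error only. Replicate 1 held 1330153 reads and replicate 2 held 1366252, so that 1 read was worth 0.752 and 0.732 counts per 1000000 reads (CPM).

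Apolipoproteins carry lipids between cells, and the brain makes its own because the particles of the blood do not cross into it. Apoe is released mainly by astrocytes, and by microglia under stress, and delivers cholesterol to lipoprotein receptors of the cell surface. Clu (clusterin, or apolipoprotein J) is a secreted chaperone that binds lipids and misfolded proteins, and in brain it comes largely from astrocytes. Apod is a lipocalin, a small barrel-shaped carrier of hydrophobic molecules, made by oligodendrocytes and by fibroblasts around vessels.

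In GENCODE M21 on mm10, Apoe (ENSMUSG00000002985) lies on the minus strand of chromosome 7, from 19696109 to 19699188. Clu (ENSMUSG00000022037) lies on the plus strand of chromosome 14, from 65968483 to 65981547. Apod (ENSMUSG00000022548) lies on the minus strand of chromosome 16, from 31296192 to 31314808. The leading transcripts by reads were Apoe-206 with 4 exons, Clu-201 with 9 exons and Apod-203 with 6 exons. The first exon of each lies wholly in the 5′ UTR, and in Apod-203 exon 2 does too.

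Both libraries used several ways of building the 5′ part of Clu and Apod, and the sequences across those junctions are shown because the results turn on them. They were copied from the GENCODE M21 transcripts. Clu exon 2 was joined to 3 main first exons, here with the last 15 bases of the first exon in capitals and the first 15 of exon 2 in lower case.
Clu-201 first exon: CCAAGCCGCAGACCGgactccagattccaa
Clu-203 first exon: CGTTGCCCAGAGATGgactccagattccaa
Clu-209 first exon: GATCGCTTCTTTGAGgactccagattccaa
The first exons end at 65968688, 65971175 and 65969899, and all 3 run into the same bases of exon 2, which begins at 65971732.

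Each gene also had a splice site a few bases from an annotated one, used in both libraries and not in GENCODE M21. At Apoe intron 3 the unannotated donor lies 4 bases downstream, at Clu exon 6 the unannotated acceptor lies 3 bases downstream, and at Apod exon 2 the unannotated acceptor lies 4 bases downstream. The deposited classes did not always mark these sites as unannotated. The 4-exon Apoe model with the shifted donor (11 and 13 reads) was classed as a new combination of annotated sites. Clu models with the shifted acceptor fell in several classes. The bases that differ between both forms are in capitals.
Apoe exons 3 and 4, annotated donor: cacacaagaactgacggcactgatggagga
Apoe exons 3 and 4, shifted donor: caagaactgacGTGAggcactgatggagga
Clu exons 5 and 6, annotated acceptor: tggatttcttaagagAAGgtgaagatgacc
Clu exons 5 and 6, shifted acceptor: tggatttcttaagaggtgaagatgaccgca
Apod exons 1 and 2, annotated acceptor: catctgatctgagagTTAGaaactgacagt
Apod exons 1 and 2, shifted acceptor: catctgatctgagagaaactgacagtgagc
Apod exons 1 and 3, exon 2 skipped: catctgatctgagaggcctctcctgcagcc
Annotated transcripts that keep the intron show both sites of Apoe and of Apod side by side, with the first 2 intron bases at each Apoe donor, or the last 2 at each Apod acceptor, in capitals.
Apoe, both donors of intron 3: cacacaagaactgacGTgaGTgtccagctc
Apod, both acceptors of intron 1: ctgtcttcatttcAGttAGaaactgacagt
Both Apoe donors read GT and both Apod acceptors read AG, the usual intron ends.

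**Figure D1:**
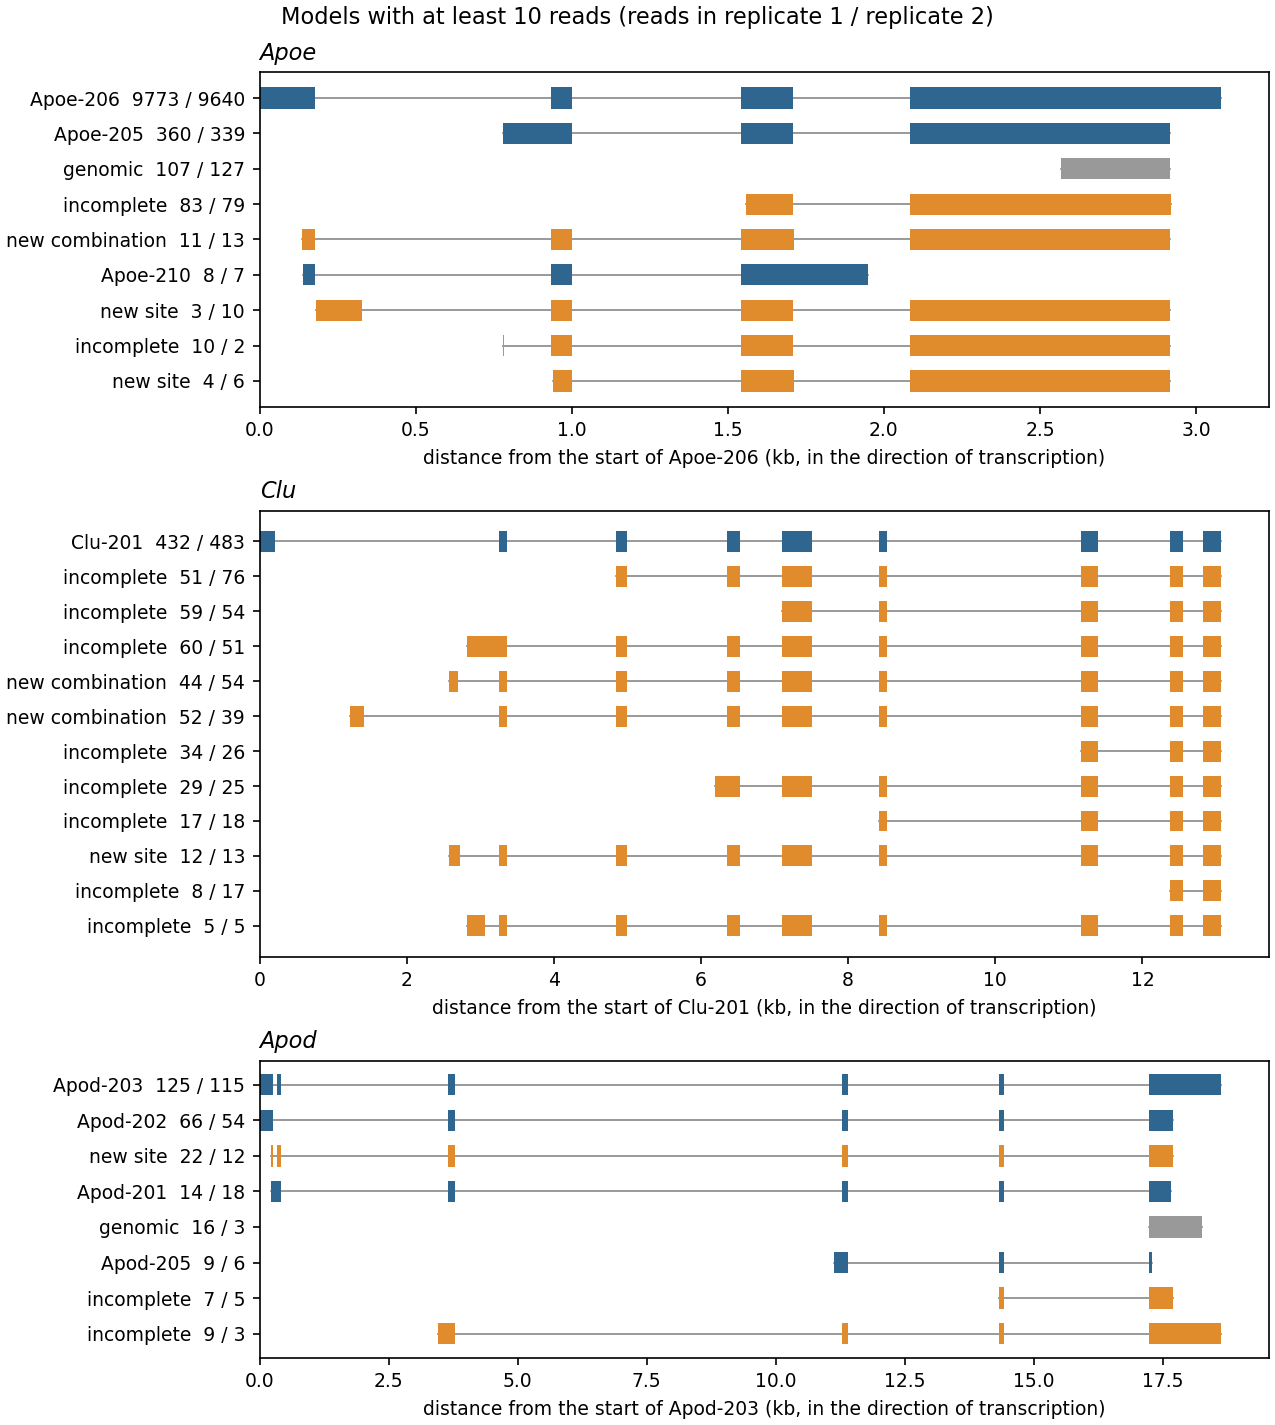
Transcript models of Apoe, Clu and Apod with at least 10 reads over both libraries, drawn as exons (boxes) on distance from the start of the leading transcript in kb. Blue models are annotated, orange ones are not and grey ones are genomic reads, with reads in replicate 1 and replicate 2 at the left (genomic reads are pooled and drawn as the most-read model). Apoe rests on 1 model (9773 and 9640 reads), while Clu and Apod spread over several.

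Apoe was among the genes with most reads in the tissue. It had 10397 reads in replicate 1 and 10254 reads in replicate 2, which is 7816 CPM (Clopper-Pearson 95% interval 7667 to 7968) and 7505 CPM (7361 to 7651). Its mean of 7661 ± 220.0 CPM (SD, n = 2) ranked 2 among 18572 nuclear genes. Clu had 838 and 901 reads, or 630.0 CPM (588 to 674) and 659 CPM (617 to 704), with a mean of 645 ± 20.8 CPM and rank 169. Apod had 270 and 217 reads, or 203 CPM (179 to 229) and 159 CPM (138 to 181), with a mean of 181 ± 31.2 CPM and rank 981. Per 1000 bases of read-weighted model length the means were 5538 ± 154 CPM for Apoe, 391 ± 12.3 for Clu and 119 ± 22.7 for Apod, in the same order, and the libraries of neighbouring genes in that order did not overlap on either scale. In bulk tissue, more cells of a type and more RNA per cell cannot be told apart.

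**Figure D2:**
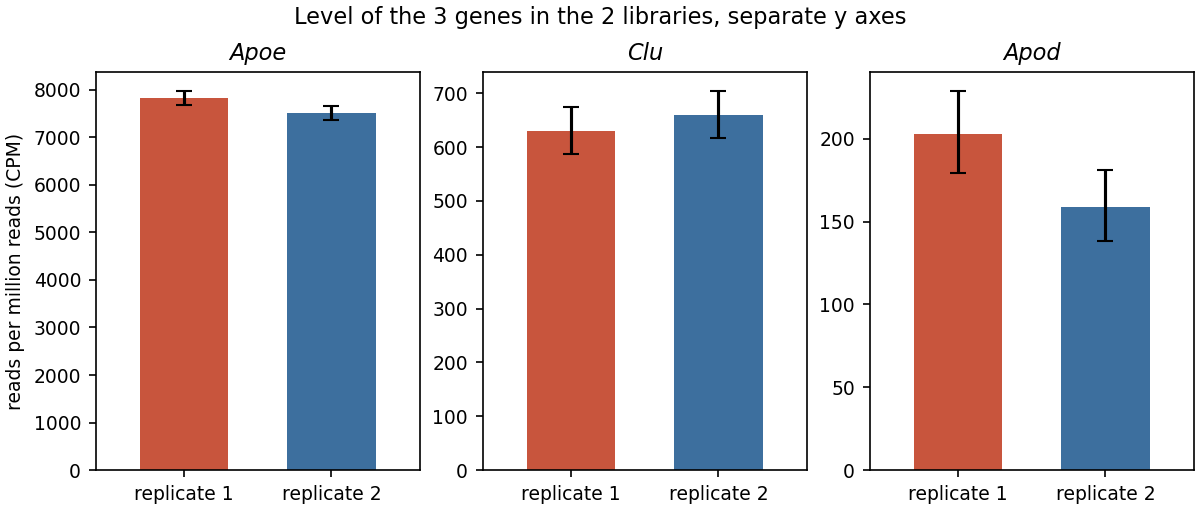
Level of each gene in CPM (y axis, a separate scale per gene) in replicate 1 and replicate 2, with Clopper-Pearson 95% intervals as error bars. The intervals of Clu and Apod overlap between libraries (for Apod 179 to 229 against 138 to 181), and those of Apoe do not (7667 to 7968 against 7361 to 7651).

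In a two-sided Fisher's exact test adjusted by Benjamini-Hochberg over 11891 genes, none of the 3 members passed at 0.05, in a comparison where 5.95% of all genes did (305 higher in replicate 1 and 402 higher in replicate 2; with DESeq2 size factors 352 and 304). The log2 ratio of replicate 1 over replicate 2 was 0.06 for Apoe (95% interval 0.02 to 0.10, exact p = 0.00342, adjusted p = 0.0558). By the same exact test it was -0.07 for Clu (-0.20 to 0.07, adjusted p = 0.758) and 0.35 for Apod (0.09 to 0.62, p = 0.00745, adjusted p = 0.0970). The Apoe difference is a ratio of 1.04 and the Apod difference a ratio of 1.28. Both lie near the threshold: other library sizes or filters took Apoe past it in 5 of 7 settings and Apod in 2 of 7, with adjusted p from 6.23e-06 to 1 for Apoe and from 0.0443 to 1 for Apod. The top of both ranges came from edgeR's exact test, which allows for a common spread between libraries.

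Marker genes of several cell types differed between the libraries beside these levels. The 12 choroid plexus markers summed to 14047 CPM in replicate 1, against 324 CPM in replicate 2, were all higher in replicate 1, and Kcne2, Aqp1, Otx2 and Slc4a5 were at 0 in replicate 2. With those markers left out of the totals Apoe passed (log2 ratio 0.08, adjusted p = 0.00323). The 10 astrocyte markers summed to 11632 and 10533 CPM with 4 higher in replicate 1, and most of the sum was Cst3 (7671 and 6369 CPM). Aldoc, the next highest, was lower in replicate 1 (1844 and 2172 CPM), so the sum gives no common direction of these markers. The 8 oligodendrocyte markers summed to 5553 and 7275 CPM with 3 higher in replicate 1, and the 8 microglia markers to 1164 and 1429 CPM with 1 higher. The 10 markers of meningeal fibroblasts summed to 144 and 218 CPM with 1 higher in replicate 1, and Col3a1 and Slc22a6 were at 0 there. The part of these cell types in the levels of Apoe, Clu and Apod was not tested.

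The genes next to each member in mean CPM were named as the most alike in level. Around Apoe these were Fth1, the ferritin heavy chain, above it (8266 and 8163 CPM) and the chaperone Hspa8 (6375 and 7922 CPM) and the protease inhibitor Cst3 (7671 and 6369 CPM) below it. Hspa8 and Cst3 differed between the libraries (adjusted p = 1.76e-48 and 7.31e-35, Fisher's exact test), in opposite directions. Cst3 stood below Apoe in both libraries, and Hspa8 below it in replicate 1 and above it in replicate 2. Isca1 and Napa stood above Clu and Rps14 and Tubb4b below it, all within 2.98 CPM of its mean, less than its SD. Polr2e and Minpp1 stood above Apod and Sbds and Dynlt3 below it, within 0.553 CPM. Of these 8 genes, only Minpp1 passed the test (154 and 208 CPM, adjusted p = 0.0240).

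The 3 genes differed widely in how their reads matched the annotation. Models of the annotated class took 97.7% of Apoe reads in replicate 1 (97.4 to 97.9) and 97.5% in replicate 2 (97.2 to 97.8). For Clu they took 51.6% (48.1 to 55.0) and 53.6% (50.3 to 56.9), and for Apod 79.3% (73.9 to 83.9) and 88.9% (84.0 to 92.8). The median over the 7092 genes that had 20 or more reads in both libraries was 67.5% and 69.7%, so that Apoe and Apod stood above the median gene and Clu below it. Between libraries no member's annotated share passed (Fisher's exact test, adjusted p = 0.204 for Apod and 1 for the others), where 1.28% of genes did. The leading model held 94.98% and 95.2% of Apoe reads, 51.6% and 53.6% of Clu reads, and 49.2% and 53.7% of Apod reads, genomic reads left out, and no member passed that test either (3.19% of genes did). Models of a single exon held 1.04% and 1.27% of Apoe reads, 0 of 838 and 0 of 901 Clu reads (a count of 0, with a floor of 3 reads, allows up to 0.358% and 0.333%), and 5.93% and 1.38% of Apod reads, and no member passed (1.4% of genes did).

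**Figure D3:**
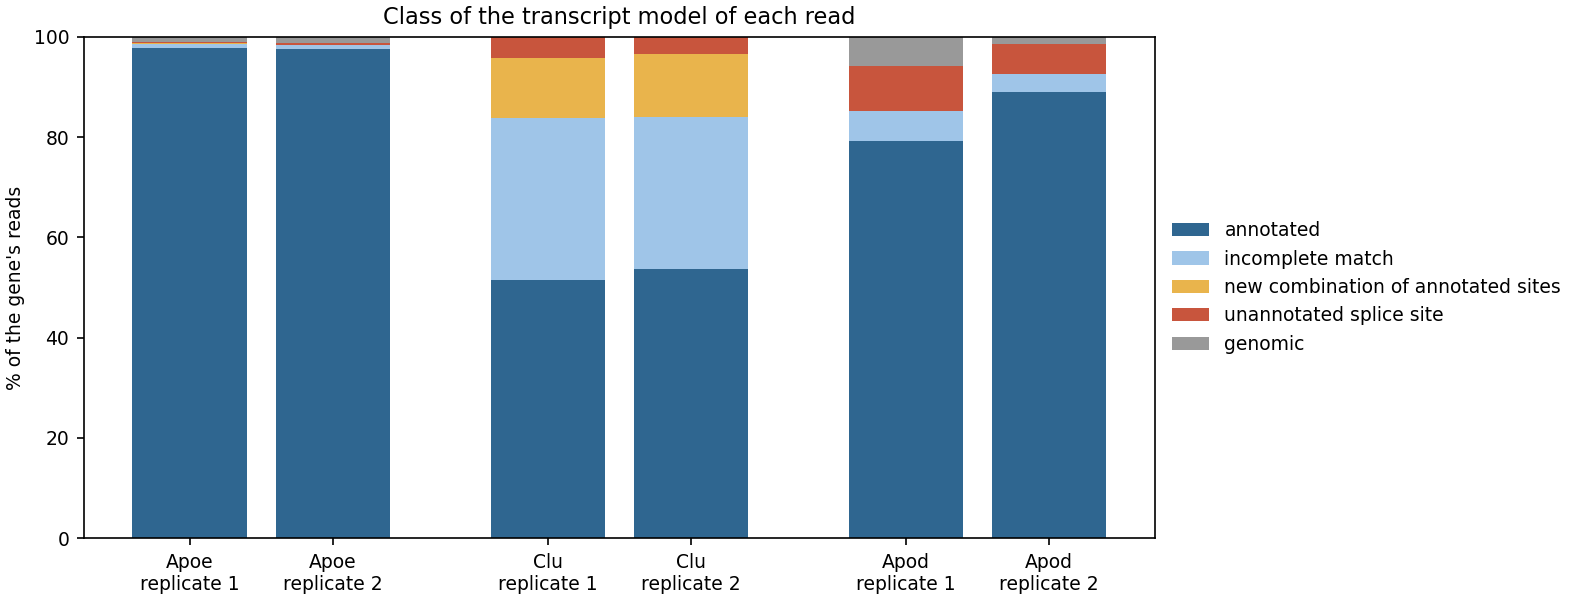
Share of each gene's reads (y axis, %) by class of its transcript model, with replicate 1 left of replicate 2 for each gene. Annotated models fill 97.7% and 97.5% of the Apoe bars, incomplete matches 32.3% and 30.4% of the Clu bars, and genomic reads 5.93% and 1.38% of the Apod bars.

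Most of the other Clu reads were incomplete matches, which carry part of an annotated chain of introns. They made up 32.3% and 30.4% of Clu reads, and those that lacked the 5′ part alone 31.5% and 29.7%, against a median of 6.06% over all genes. These models began at successive exons along the gene. Only 53.3% and 55.3% of all Clu reads lay on a model that began within the first exon of Clu-201 or before it. By exon 2 the share was 75.7% and 75.8%, and by exon 5 it was 92.8% and 93.2%. The step to exon 2 is not made of incomplete matches alone. It includes models with another first exon joined to exon 2, mainly those of Clu-203 (45 and 61 reads) and Clu-209 (53 and 42 reads). Models that start in the stretch just before exon 2 held 61 and 52 reads. For Apoe the share at exon 1 was 94.5% and 94.5%, and for Apod 84.8% and 92.2%. A read can stop short of the start of its transcript in the making of the library, and that was not tested. Of the Clu reads outside annotated models, 99.0% and 99.5% were on a model that began exactly on the first base of an annotated exon, and the shares at annotated transcript starts did not change with a tolerance of 0 to 100 bases. Where a read itself began is therefore not observed.

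**Figure D4:**
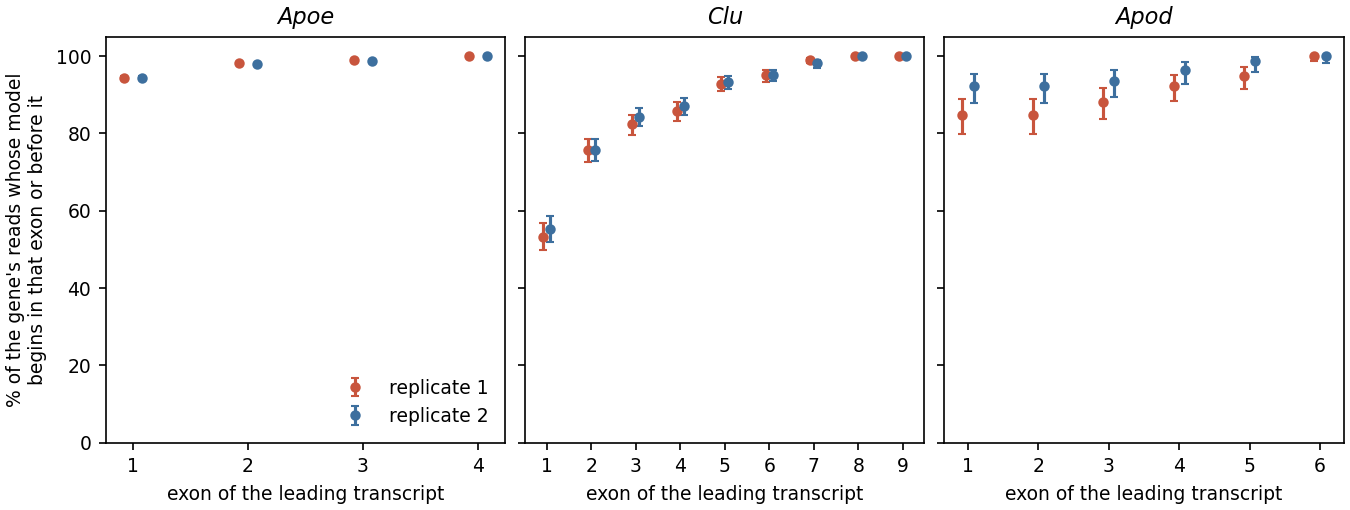
Share of each gene's reads (y axis, %) whose model begins in a given exon of the leading transcript (x axis) or upstream of its end, in replicate 1 and replicate 2, with Clopper-Pearson 95% intervals. Clu climbs over its 9 exons from 53.3% and 55.3%, while Apoe begins at 94.5% in both libraries. The Clu step at exon 2 includes models with another first exon joined to exon 2.

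Models that span the whole annotated coding sequence held 97.7% and 97.5% of Apoe reads, 73.9% and 73.3% of Clu reads, and 87.4% and 93.1% of Apod reads. In Clu, 22.3% and 19.6% of reads were on such a model outside the annotation. Since read starts are not observed, the share of reads that themselves hold the whole coding sequence is not known.

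Among Clu reads with a first exon joined to exon 2 (573 and 628, or 68.4% and 69.7% of its reads), the first exon of Clu-201 held 77.3% (73.7 to 80.7) and 78.7% (75.2 to 81.8). The first exon of Clu-203 held 7.85% and 9.71%, and that of Clu-209 held 9.25% and 6.69%, and their intervals overlapped between libraries. Clu-203 and Clu-209 are annotated as short transcripts of 5 exons, but their first exons were carried here by models of 9 exons (44 and 54 reads, 52 and 39 reads), a chain not in GENCODE M21. An unannotated first exon end at 65971210 held 2.09% and 2.07%. A further 7.28% and 5.77% of Clu reads were on models that start in the stretch just before exon 2, without a first intron.

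Apoe had 1 main first exon. Among reads that joined exons 2 and 3, the first exon of Apoe-206 held 96.2% (95.9 to 96.6) and 96.4% (96.0 to 96.8). Models without a first intron held 3.58% (3.23 to 3.96) and 3.45% (3.10 to 3.82), and any other first exon 0.176% and 0.129%. Most reads without a first intron, 360 and 339, were on Apoe-205, whose annotated start lies inside intron 1. A read on an annotated model takes that model's start, so where these reads began is not observed. Apoe-206 and Apoe-205 carry the same annotated coding sequence. The shifted donor of intron 3 was used in 16 of 10275 and 20 of 10114 reads, which is 0.156% and 0.198%. The 4 bases it adds lie in the coding sequence. Of the genomic reads of Apoe, 108 and 127, all but 1 lay on an unspliced model within the last exon (107 and 127 reads).

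In Apod, 229 and 200 reads were joined into exon 3, the exon that holds the start of the coding sequence. Exon 2 was present with its annotated sites in 55.0% (48.3 to 61.6) and 57.5% (50.3 to 64.4), and was skipped in 29.3% (23.5 to 35.6) and 27.5% (21.4 to 34.2). The shifted acceptor held 9.61% (6.12 to 14.2) and 6.00% (3.14 to 10.2). Apod-201, the only model that keeps the first intron, of 83 bases, held 6.11% (3.38 to 10.04) and 9.0% (5.42 to 13.9). A read on Apod-201 takes its annotated start, so whether these reads themselves ran through the intron is not observed. Any other joining into exon 3 had 0 of 229 and 0 of 200 reads (which by the same floor of 3 reads allows up to 1.31% and 1.5%). The 4 forms differ upstream of the coding sequence of Apod-203.

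**Figure D5:**
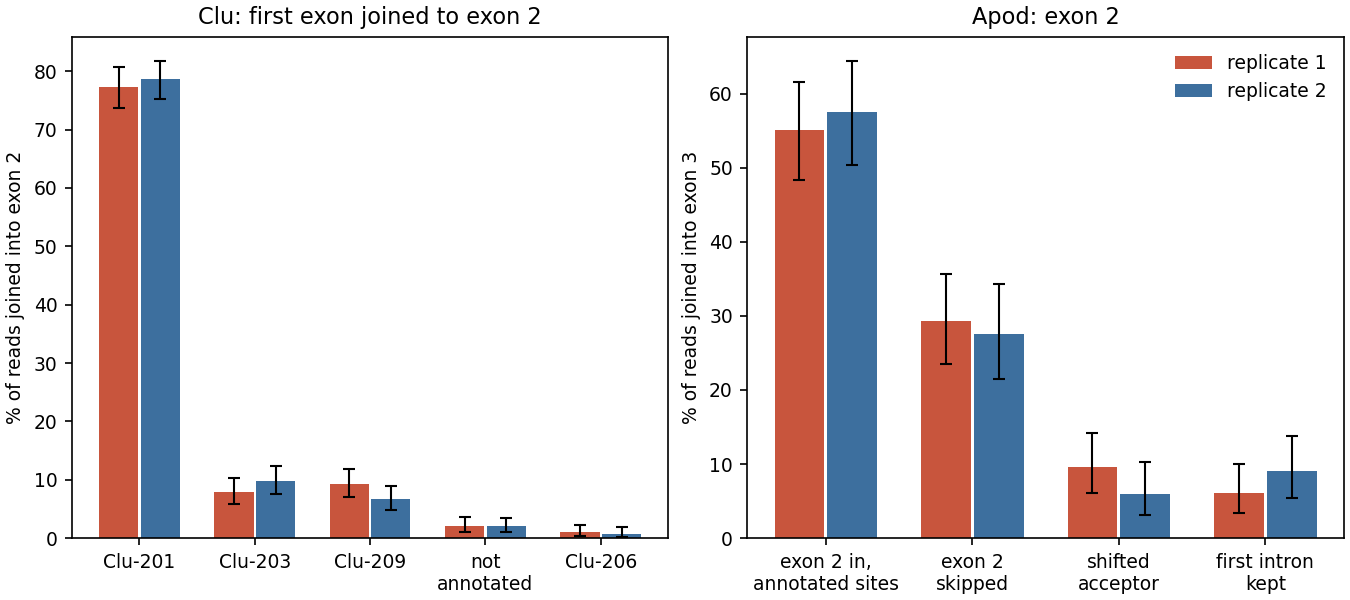
Left, share of Clu reads joined into exon 2 by first exon (named by an annotated transcript that has it); right, share of Apod reads joined into exon 3 by the form of exon 2, in replicate 1 and replicate 2 with Clopper-Pearson 95% intervals. Clu-201 holds 77.3% and 78.7%, exon 2 skipping in Apod holds 29.3% and 27.5%, and the intervals of every pair overlap.

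Reads that ran across the whole of a remaining intron were rare or absent at this depth. Every intron of Clu-201, introns 1 and 2 of Apoe-206 and introns 2 to 5 of Apod-203 had no read that ran across them unspliced and at least 10 bases past both ends. In replicate 2, 1 Clu read was on a model that covers intron 7 but ends on the first base of exon 8, and it is not counted. Models that begin inside an intron are not counted either, so these counts do not show that splicing was complete. Among them were Apoe-205 in intron 1 (360 and 339 reads) and incomplete Clu models in introns 1 (60 and 51) and 3 (29 and 25). In Apod they were Apod-205 in intron 3 (9 and 6 reads) and an incomplete model in intron 2 (9 and 3). By the floor of 3 reads, a count of 0 allows up to 0.0310% at Apoe introns 1 and 2 and up to 0.677% at Clu introns. For Apod introns 2 to 5 the limit is 2.07%. Intron 3 of Apoe was kept in 1 and 3 reads, all on the single-exon Apoe-211, against 10255 and 10093 spliced. A further 8 and 7 reads were on Apoe-210, whose last exon ends inside that intron, and they are not counted. Intron 1 of Apod was removed in 90.0% (83.8 to 94.4) and 86.5% (79.5 to 91.8) of the reads on models that splice it at its annotated sites or span it. That base leaves out reads with the shifted acceptor (22 and 12) or with exon 2 skipped (67 and 55), which lack the intron too. Of all reads joined into exon 3, 6.11% and 9.0% were on a model that keeps it. The models that span it are Apod-201 alone, with the limit given above. The Clu acceptor shifted by 3 bases was used in 8 of 774 and 9 of 836 reads (1.03% and 1.08%), in the coding part of exon 6.

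RefSeq promoter entries of build GRCm38.p6 were found for Apoe and Apod. The 250 bases before the Apoe starts are given where an annotated model with reads begins at or near the start. Whether the reads themselves began there is not observed. The first stretch precedes Apoe-206, at chr7:19699189-19699438, and the second the start 9 bases from that of Apoe-205, at chr7:19698399-19698648, both on the minus strand.
Apoe-206 start: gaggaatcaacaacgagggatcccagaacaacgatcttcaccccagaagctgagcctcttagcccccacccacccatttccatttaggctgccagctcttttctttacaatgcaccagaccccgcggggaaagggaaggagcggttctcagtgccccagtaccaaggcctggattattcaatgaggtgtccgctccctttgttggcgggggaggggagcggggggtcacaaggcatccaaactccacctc
Apoe-205 start: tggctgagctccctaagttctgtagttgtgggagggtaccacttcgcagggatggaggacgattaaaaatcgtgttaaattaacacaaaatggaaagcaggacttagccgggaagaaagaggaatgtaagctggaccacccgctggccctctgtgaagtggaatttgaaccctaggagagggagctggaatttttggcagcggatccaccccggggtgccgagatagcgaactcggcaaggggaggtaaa
Searched on both strands, the TATA box letters TATAAA were in neither, nor in the 250 bases before Apod, and 12.4% of 32851 promoters of the same length hold them. The CCAAT box was likewise in none of the 3, and is in 33.8% of promoters. The same held for the GC box letters GGGCGG, which are in 32.7% of promoters. The other Apoe entry, at the start of Apoe-207, held the TATA box letters on both strands in overlapping positions, and Apoe-207 itself had no read.

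The lipid list held 65 other genes, of lipid transport or only linked to it, as Bsg and Dab1 are. Of these, 52 were detected and 40 could be tested. Ptgds, the lipocalin that makes prostaglandin D, fell to 1073 CPM in replicate 1, against 2680 CPM in replicate 2 (adjusted p = 8.84e-207, Fisher's exact test). Dab1, the adaptor of Reelin signalling, was also lower in replicate 1 (121 and 190.3 CPM, adjusted p = 2.77e-04). Bsg, a membrane glycoprotein that escorts monocarboxylate transporters (1789 and 1334 CPM, adjusted p = 8.53e-19), and Npc2, the lysosomal cholesterol carrier (232 and 155 CPM, adjusted p = 3.05e-04), were higher in replicate 1. That is 4 of 40 called, or 10%, against 5.95% of all genes, with a median log2 ratio of 0.09 against -0.05. Lrpap1, the chaperone of lipoprotein receptors (489 and 476 CPM), and the phospholipid transfer protein Pltp (145 and 138 CPM) completed the 6 highest and did not pass. With a common dispersion, edgeR's exact test called 1 of the 4, Ptgds.

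A few receptors and a transporter that Apoe meets were named after their values were seen. Lrp1, a large endocytic receptor of Apoe, had 24.1 and 28.5 CPM, and Vldlr had 37.6 and 44.6 CPM. Abca1, which loads lipid onto Apoe, had 20 and 7 reads (15.04 and 5.12 CPM, adjusted p = 0.130 by Fisher's exact test). The 13 genes without a read in either library included Apob and Apom.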

How the data were processed

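Long reads were counted per transcript model in 2 libraries of hippocampus, 1 group. The deposited tables hold raw read counts per model, with no normalization by the authors, and the deposited annotations give exon coordinates and were made with TALON, per the file headers. The build mm10 and annotation GENCODE M21 are named in the deposited description files. Aligner, TALON version, platform, filters and strand setting: not given in the sources used here. Molecular identifiers are not described, so intervals cover counting error only.

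Counts were summed per gene over every class of model and divided by all reads of the library (CPM). Genes with at least 10 reads over both libraries were compared by a two-sided Fisher's exact test adjusted by Benjamini-Hochberg (scipy 1.17.1), and shares of reads within a gene by the same test with at least 20 reads in each library. edgeR 4.0.16 and DESeq2 1.42.0 gave other library sizes, and edgeR an exact test with a common dispersion from both libraries. Models were matched between libraries by chromosome, strand and intron chain. Reads kept an intron where a model ran at least 10 bases past both ends of it. The tests were checked on simulated counts that varied by counting error alone. That check could not show how they behave where libraries differ by more than counting error. The named genes are the members, their models with at least 10 reads, and 2 genes above and below each in level. Genes of the lipid list that passed or were among its 6 highest are named too. Members and lists were chosen with earlier results of these data known.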

Additional observations from a re-analysis of the deposited data

How the results depend on the processing

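Apart from leaving out a library or changing the tolerance on starts and ends, 100 alternative values were computed, and 81 were counted as unchanged. A test counted so if it stayed on the same side of the threshold, and a number of genes called if it stayed within a set fold. A level or share did if it moved by less than the spread between libraries. A change of sign with neither value past the threshold also counted as unchanged. The difference in Apoe annotated share, for example, went from 0.19 to -0.009 percentage points with genomic reads left out. Part of the 81 could not have moved. An intron with no read across it stays at 100% whichever models are left out, and Clu had no genomic reads to remove from its shares. The count of 81 is therefore no measure of stability. Levels moved with the total used: with nuclear reads alone as the total, Apoe reached 7995 CPM and Clu 673 CPM. With genomic reads left out they reached 8185 and 696 CPM. With annotated models alone Apoe reached 10975 CPM, Clu fell to 497 CPM and Apod reached 222 CPM, since the total shrinks and Clu loses its other models. The number of genes that differed between libraries was 49 with edgeR's exact test and a common dispersion, against 707 in the main test, and the lipid list then had 1 call. That dispersion includes any real difference between replicate 1 and replicate 2. With genomic reads left out, the annotated share differed for 152 genes and the single-exon share for 424, and the cause was not tested. Removal of Apoe intron 3 was 100% among models with an intron, which was fixed in advance. Every read counted as keeping it was on the single-exon Apoe-211. Apoe's call between libraries depended on the setting (past the threshold in 5 of 7), as did that of Apod (2 of 7), and in no setting did either change direction. Leaving out a library gives the value of the other one, which with 2 libraries is always within 1 SD of their mean and shows nothing about stability. The tolerance could not move the start and end shares, since models begin and end on annotated positions or over 100 bases from them. No paired analysis was possible because the labels give 1 group. Depth limits Apod most, with 270 and 217 reads.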

Other observations

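Reads on antisense models over the members were at or under the floor of 3 reads: 1 and 3 over Apoe, 0 and 0 over Clu, and 1 and 0 over Apod. Genomic reads of Apod numbered 16 in replicate 1 and 3 in replicate 2, or 5.93% and 1.38% of its reads. By Fisher's exact test this single-exon share had p = 0.00961 and an adjusted p of 0.302 over all genes tested, of which 1.40% passed. Intron chains seen in both libraries held 99.8% and 99.9% of Apoe reads, 98.7% and 97.8% of Clu reads, and 99.3% and 99.5% of Apod reads. Most of the 47 Apoe models were rare, and 22 and 15 of its models had a single read.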
